A study of Mus musculus with 30 samples.

Results

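The data described here are the change in the effect of a myocardial infarction on the mouse heart between days 4 and 7 after the operation, that is, the difference between infarcted and sham hearts at day 7 minus the same difference at day 4. It was formed by sample title from 20 of the 30 libraries of the series: MI at day 7, sham at day 7, MI at day 4 and sham at day 4, with 5 libraries in each group. All mice were wild-type C57BL/6J. MI mice had a coronary artery tied off under isoflurane through an opened chest and pericardium, and sham mice had the same operation without the tie. RNA of the heart was sequenced from directional libraries, and the deposited values are raw counts per gene, given below as CPM, the count scaled to a common library total. Statements on overlap use these CPM. The log2 differences and changes of days 4 and 7 come from a fit that also applies TMM scaling factors. They therefore need not equal the log2 ratios of the printed CPM. The sources used here do not give the part of the heart taken, the time of day of collection or the age of the mice. Replicates are named as separate samples without a statement on animals. The p-values therefore measure only how far these samples spread, which may be technical.

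An infarct heals in overlapping phases. Inflammatory cells clear dead muscle, fibroblasts then multiply and lay down collagen, and the young scar later matures as fibroblasts stop dividing, cross-link the collagen and add proteins that organise its fibrils. Small leucine-rich proteoglycans, fibulins and thrombospondins belong to this organising matrix, and secreted frizzled-related proteins, which bind Wnt ligands, are made by the same cells.

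The 20 libraries held 7841930 to 12119745 counts each and 18668 to 20905 detected genes. The defining markers of cardiomyocytes (Myh6, Ttn, Tnnt2, Actn2 and Ryr2) were detected in every group and summed to 17836 to 25320 CPM in MI day 7, 25728 to 37488 CPM in sham day 7, 17170.5 to 24462 CPM in MI day 4 and 31674 to 39691 CPM in sham day 4 libraries. Some libraries also held transcripts of other tissues. The lung genes Sftpc and Scgb1a1 summed to at least 50 CPM in 1 MI day 7, 3 sham day 7, 0 MI day 4 and 2 sham day 4 libraries, with a highest value of 1642 CPM in MI day 7 replicate 2. Below that limit they read 0, 22.03, 10.7 and 24.0 CPM in MI day 7 replicates 1, 3, 4 and 5, and 0 to 1.22 CPM in the MI day 4 libraries. Over the 6 defining lung markers the median library held 31.3 CPM in MI day 7, 285 CPM in sham day 7, 0.510 CPM in MI day 4 and 0.333 CPM in sham day 4. The fast skeletal muscle genes Myh1, Mylpf and Actn3 summed to 774 CPM in MI day 7 replicate 4. Over the whole lung list of 17 genes, the summed level was 160.5 to 2629 CPM in MI day 7, 269 to 1011 CPM in sham day 7, 111 to 169 CPM in MI day 4 and 197 to 879.7 CPM in sham day 4 libraries, and Sftpd, Scgb3a2, Slc34a2 and Cldn18 were at 0 in MI day 4. The 7 libraries at or above 50 CPM on either sum were left out in an alternative fit chosen after seeing the data, which therefore keeps MI day 7 libraries with lower levels of lung transcripts. The part of these transcripts in the results was not tested. Its values are given beside some results and gathered at the end.

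Of 15537 genes tested, 109 (0.702%) had an MI effect that was higher at day 7 than at day 4 and 49 (0.315%) one that was lower, 1.02% in both directions (edgeR quasi-likelihood test, 2-sided, Benjamini-Hochberg adjusted p under 0.05). Among the higher genes the median change was 1.02 on the log2 scale and 58 changed at least 2-fold, whereas among the lower genes the median was -0.57 and 4 changed at least 2-fold. Over all genes tested the median change was 0.00. The comparisons that make up the change share their libraries with it and are given side by side: MI against sham had 4737 genes higher (30.5%) and 4234 lower (27.3%) at day 7, 57.7% in all. At day 4 it had 4072 higher (26.2%) and 3968 lower (25.5%), 51.7% in all. MI hearts of day 7 against MI hearts of day 4 had 973 genes higher and 978 lower (12.6%). Sham hearts of day 7 against sham hearts of day 4 had 8 higher (0.0515%) and 11 lower (0.0708%), 0.122% in all. The count of changed genes moved between 54 and 206 higher and between 14 and 114 lower when single libraries were left out (54 without MI day 4 replicate 2, 206 without MI day 4 replicate 5, 14 without sham day 4 replicate 3 and 114 without MI day 7 replicate 5). It was 9 higher and 0 lower without the 7 libraries, where 108 and 48 of these genes still had an unadjusted p under 0.05 (edgeR). All 158 genes kept their direction in all 30 alternatives. They were chosen on these same libraries, which the alternatives reuse in whole or in large part. Kept directions and unadjusted p-values are therefore not independent support.

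**Figure D1:**
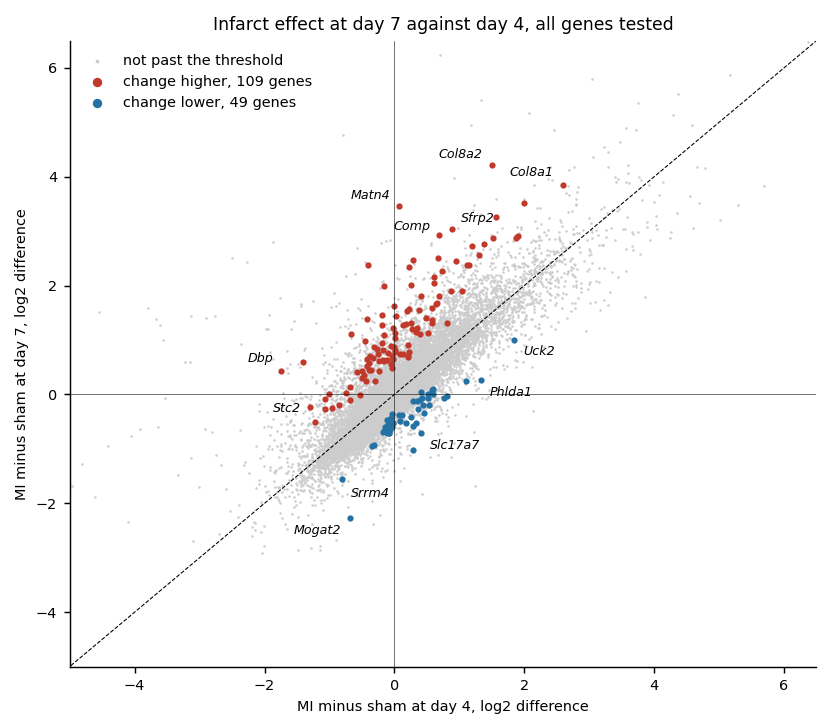
MI minus sham log2 difference at day 7 (vertical axis) against the same at day 4 (horizontal axis) for all genes tested; 21 lie outside the axes. Red points are the 109 genes whose difference was higher at day 7, blue points the 49 genes whose difference was lower, and the dashed line marks equal differences.

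Most of the 109 higher genes moved in infarcted hearts. Between MI day 7 and MI day 4, 108 of them were also higher (6.26% of all genes were), with a median log2 difference of 0.83, while between sham day 7 and sham day 4 the median was -0.15 and 1 passed the test, the circadian gene Dbp, which was lower. In 93 of them (85.3%) every MI day 7 library was above every MI day 4 library, against 3.85% of all genes tested (7.53% were without overlap in either direction). In 71 (65.1%) every MI day 7 library was above all 15 other libraries, against 2.24% of all genes. The contrast that chose the 109 genes contains these same groups, so these shares follow in part from the choice and are a description. The same genes stood in several relations to sham. MI was higher than sham at day 7 and not past the threshold at day 4 in 46, higher at both days in 37, not past the threshold at day 7 and lower at day 4 in 13, higher at day 7 and lower at day 4 in 11, and lower at both days in 2. These relations were not counted over all genes tested, so whether they are unusual cannot be said. Both MI effects enter the contrast that chose the genes, so the relations follow in part from the choice. In bulk tissue, fewer cells of a type and less RNA per cell cannot be told apart, and neither can more cells and more RNA. The summed fibroblast markers Pdgfra, Col1a1, Dcn and Tcf21, of which Dcn and Tcf21 are among the higher genes, read 3118 to 6923 CPM in MI day 7, 970.2 to 1635 CPM in sham day 7, 2300 to 4324 CPM in MI day 4 and 1120 to 2138.5 CPM in sham day 4 libraries, and their part in the results was not tested. In MI day 7 libraries most of this sum was the collagen gene Col1a1, at 2093 to 6009 CPM.

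The gene with the largest change that passed the test, Matn4, belongs to the cartilage-like matrix. In the scar and cartilage-like matrix list 4 of 20 genes tested rose, 0 fell, and the median change was 1.07. Comp, cartilage oligomeric matrix protein (chr8:70373558-70382066, GRCm38), which binds collagen fibrils, read 105, 144, 123, 127 and 152 CPM in MI day 7 libraries and 15.6, 15.8, 14.3, 16.8 and 12.4 CPM in sham day 7 libraries. At day 4 it read 31.9, 12.6, 39.8, 30.2 and 41.5 CPM in MI and 24.3, 9.99, 17.3, 9.15 and 24.0 CPM in sham libraries. MI and sham did not overlap at day 7 (log2 difference 2.92) and overlapped at day 4 (log2 0.69). The change was 2.23 ± 0.34 (log2 ± SE, edgeR adjusted p = 0.000707, n = 5 libraries a group). Matn4, matrilin 4, an adaptor protein of the matrix (chr2:164389393-164405160), read 13.6, 25.7, 17.8, 20.9 and 17.8 CPM in MI day 7 libraries, and between 0.503 and 2.35 CPM in the 15 others. Its change was 3.39 ± 0.53 (edgeR adjusted p = 0.000767), and it was 2.58 (adjusted p = 0.156) without the 7 libraries. Fmod, the fibril-binding proteoglycan fibromodulin, read 46.1, 92.4, 61.6, 122 and 80.9 CPM in MI day 7 and 10.8 to 17.3 CPM in sham day 7 libraries. At day 4 MI stood at 9.87 to 28.9 CPM and sham at 3.82 to 23.1 CPM. Every MI day 7 library was above all others, and the change was 2.12 ± 0.45 (edgeR adjusted p = 0.0187). Cilp, the cartilage intermediate layer protein of activated cardiac fibroblasts, had a change of 1.41 ± 0.38 that did not pass (edgeR adjusted p = 0.0677).

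**Figure D2:**
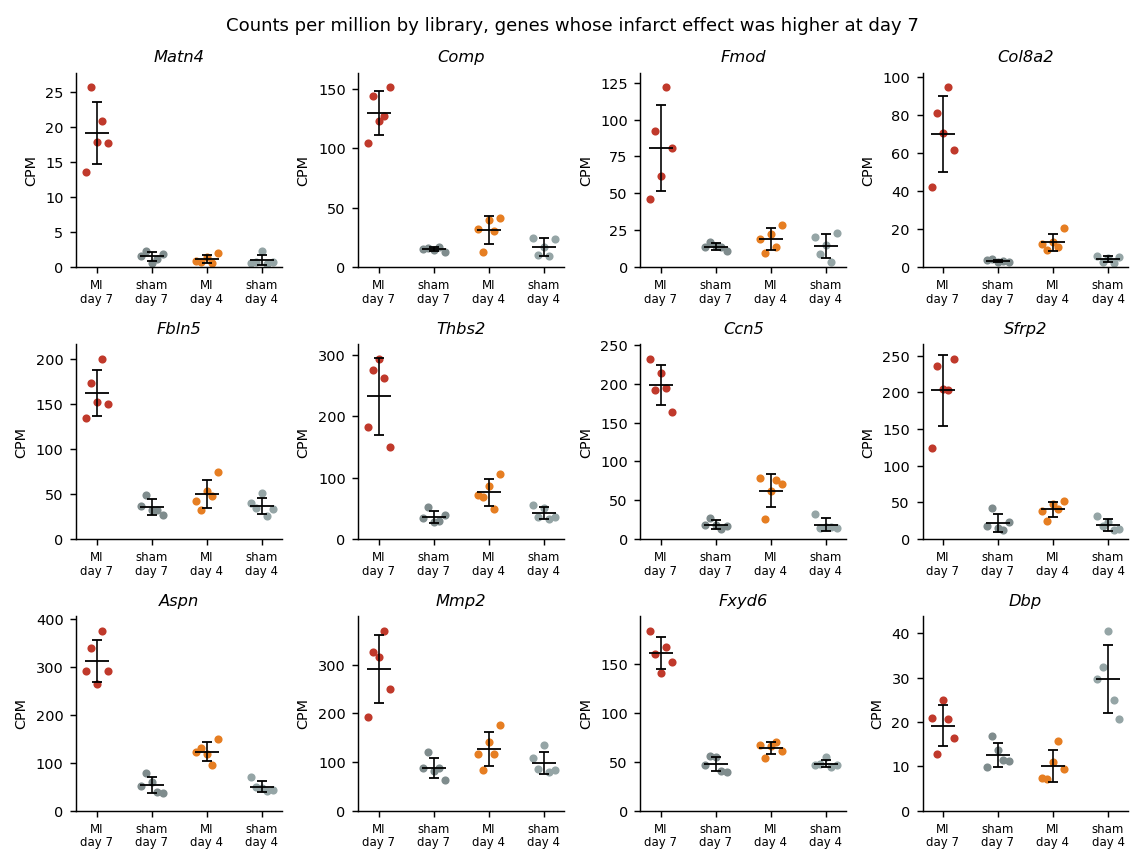
CPM in each library (points, replicates 1 to 5 from left to right) with mean and SD for 12 genes whose MI effect was higher at day 7. MI day 7 libraries stood above all other libraries for each of these genes except Dbp, whose highest library was a sham day 4 one.

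The small leucine-rich proteoglycans, which coat collagen fibrils, had 6 of 10 genes tested that rose and 0 that fell, Fmod and Prelp of the list above among them. All 10 values were positive, and the median change was 1.003. The median MI effect of the family was 0.74 at day 7 and 0.13 at day 4. Aspn, asporin, read 291, 339, 265, 377 and 292 CPM in MI day 7 and 52.0, 78.2, 59.6, 38.3 and 37.4 CPM in sham day 7 libraries. The day 4 libraries had 122, 129.8, 118, 94.9 and 150.4 CPM after MI and 69.3, 48.6, 47.5, 40.6 and 42.0 CPM after sham surgery. MI and sham did not overlap at either day, and the MI effect was larger at day 7 (change 1.26 ± 0.25, edgeR adjusted p = 0.00814, and 1.61 with adjusted p = 0.033 without the 7 libraries). Dcn, decorin, averaged 913 ± 141 CPM in MI day 7 and 598 ± 98.3 CPM in sham day 7 libraries. In day 4 libraries the level was 575 ± 108 CPM for MI and 717 ± 101 CPM for sham (SD, n = 5 each). Dcn was thus higher than sham at day 7 (log2 0.42, edgeR adjusted p = 0.00747) and lower than sham at day 4 (log2 -0.51, adjusted p = 0.00209), and so were Ogn, osteoglycin (0.53 at day 7 and -0.43 at day 4), and Prelp (0.65 at day 7 and -0.42 at day 4). Lum, lumican, had an MI effect of 1.31 at day 7 and 0.25 at day 4 and a change of 1.06 ± 0.22 (edgeR adjusted p = 0.0152). Bgn, biglycan, had a positive change that did not pass, 0.79 ± 0.23 (edgeR adjusted p = 0.0872).

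Collagens were higher at day 7 as values, but few passed the test. Type VIII collagen, a short-chain network collagen, did. Col8a2 (chr4:126286793-126314330) read 42.1, 81.3, 70.8, 94.8 and 61.8 CPM in MI day 7 and 3.85, 4.15, 2.53, 3.01 and 2.93 CPM in sham day 7 libraries. For day 4 the values were 12.2, 8.84, 13.4, 10.4 and 20.4 CPM in MI and 5.72, 2.47, 4.83, 2.21 and 5.11 CPM in sham hearts. MI and sham did not overlap at either day, and the change of 2.71 ± 0.33 (edgeR adjusted p = 3.55e-05) was 2.69 (adjusted p = 0.0123) without the 7 libraries. Its partner Col8a1 averaged 542 ± 113 CPM in MI day 7 and 32.9 ± 5.27 CPM in sham day 7 libraries. Hearts of day 4 held 271 ± 92.2 CPM with MI and 39.4 ± 12.01 CPM with sham surgery (SD, n = 5 each). The MI groups of the 2 days overlapped, and the change of 1.27 ± 0.32 (edgeR adjusted p = 0.0457) missed the threshold in 16 of the 20 fits that left out a library. The fibrillar collagens had 0 of 11 genes past the test in either direction (edgeR), 8 higher at an unadjusted p under 0.05 and 1 called higher by DESeq2. All 11 values were positive with a median of 1.04, and the median MI effect was 2.57 at day 7 and 1.28 at day 4. The share of all genes tested at an unadjusted p under 0.05 was not counted. Whether such counts are unusual, here and in the lists below, therefore cannot be said. Col1a1, the main collagen of scar, read 2093 to 6009 CPM in MI day 7 and 326 to 825 CPM in sham day 7 libraries. Among day 4 hearts, MI had 1579 to 3474 CPM and sham 424 to 1170 CPM, with a change of 1.09 ± 0.44 (edgeR adjusted p = 0.242).

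Among elastic fibre and matricellular genes few passed the test. Fbln5, fibulin 5, which is needed to assemble elastic fibres (chr12:101746565-101819055), read 135, 174, 152, 200.2 and 150.2 CPM in MI day 7 and 36.7, 48.9, 32.5, 32.3 and 26.4 CPM in sham day 7 libraries. At day 4 it read 41.9, 32.5, 53.1, 47.3 and 73.9 CPM in MI and 39.5, 33.9, 50.8, 25.8 and 33.6 CPM in sham libraries. MI and sham libraries overlapped at day 4 and not at day 7, and the change was 1.76 ± 0.24 (edgeR adjusted p = 0.000124), or 1.71 (adjusted p = 0.0192) without the 7 libraries. It was the 1 of 18 elastic fibre and microfibril genes past the test, with a list median of 0.84. Eln, elastin, averaged 1316 CPM in MI day 7, 179 CPM in sham day 7, 323 CPM in MI day 4 and 135 CPM in sham day 4 libraries, and its change of 1.62 ± 0.46 did not pass (edgeR adjusted p = 0.0802). Among 24 activated fibroblast and matricellular genes 3 rose and 0 fell, with a median of 0.74. Thbs2, thrombospondin 2, which limits vessel growth and shapes fibrils (chr17:14665500-14694235), read 182, 275, 294, 262 and 149 CPM in MI day 7 and 27.8 to 52.4 CPM in sham day 7 libraries. On day 4, MI libraries held 48.0 to 106 CPM and sham libraries 32.9 to 55.3 CPM. All MI day 7 libraries were above all others (change 1.82 ± 0.31, edgeR adjusted p = 0.00178). Ccn5, a matricellular protein of the CCN family, averaged 199 ± 25.7 CPM in MI day 7 and 18.2 ± 5.52 CPM in sham day 7 libraries. At day 4 MI stood at 62.3 ± 21.3 CPM and sham at 18.4 ± 7.91 CPM (SD, n = 5 each), a change of 1.71 ± 0.38 (edgeR adjusted p = 0.023). Postn, periostin, the usual marker of activated fibroblasts, had a change of 1.01 ± 0.38 that did not pass (edgeR adjusted p = 0.209), and Acta2, smooth muscle actin of myofibroblasts, one of 0.31 ± 0.31 (adjusted p = 0.718). Markers of resting fibroblasts had 2 of 17 genes higher and 0 lower, Pi16 and Tcf21, a transcription factor of cardiac fibroblasts. Tcf21 averaged 33.3 ± 4.01 CPM in MI day 7 and 12.5 ± 2.39 CPM in sham day 7 libraries. The day 4 libraries had 19.5 ± 2.63 CPM after MI and 13.3 ± 3.17 CPM after sham surgery. The change of 0.87 ± 0.22 (edgeR adjusted p = 0.0428) missed the threshold in 12 of the 20 fits that left out a library.

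**Figure D3:**
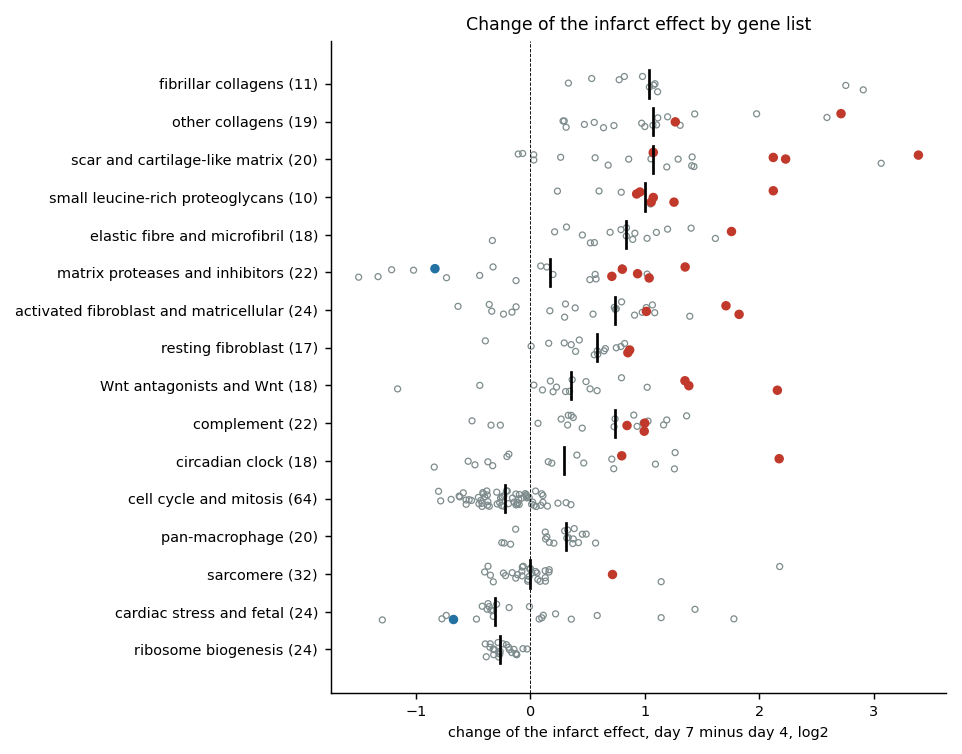
Change of the MI effect, day 7 minus day 4 (log2), for the genes tested in 16 lists, with the number tested in brackets. Filled red points passed the test as higher and filled blue points as lower, open points did not pass, and the black bar is the list's median.

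Secreted Wnt antagonists were among the higher genes. In the Wnt list 3 of 18 genes rose and 0 fell, with a median of 0.35, and the 3 were frizzled-related proteins. Without the 7 libraries the median was 0.16 and 0 genes passed (edgeR). Sfrp2 (chr3:83766321-83774316) read 124, 236, 204, 204 and 246 CPM in MI day 7 and 17.5, 41.8, 15.3, 11.6 and 22.4 CPM in sham day 7 libraries. In day 4 libraries the level was 38.1, 24.8, 47.5, 41.3 and 51.3 CPM for MI and 31.7, 17.0, 22.8, 12.4 and 12.9 CPM for sham. MI day 7 stood above every other library, and the change was 2.16 ± 0.43 (edgeR adjusted p = 0.0106). Frzb averaged 67.4 ± 6.999 CPM in MI day 7 and 8.10 ± 1.5002 CPM in sham day 7 libraries. For day 4 the values were 34.1 ± 7.64 CPM in MI and 10.4 ± 2.93 CPM in sham hearts (SD, n = 5 each), a change of 1.35 ± 0.22 (edgeR adjusted p = 0.00104). For Sfrp1 the change was 1.38 ± 0.27 (adjusted p = 0.00683). Wif1, another Wnt inhibitor, had a change of 0.03 ± 0.39 (edgeR adjusted p = 0.986).

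The promoters of a matrix gene and a Wnt antagonist are shown because both genes had MI day 7 libraries above all others. The windows are the 250 bases before the RefSeq start of Thbs2 (chr17:14694263-14694512, minus strand) and of Sfrp2 (chr3:83766071-83766320, plus strand), from RefSeq on GRCm38.p6, written 5′ to 3′ along the gene. Capitals mark TATAAA (the TATA box core), CCAAT and CAGACA (a SMAD binding element) or their reverse complements, searched on both strands together with GGAATG (a TEAD element) and CACGTG (an E-box), and no 2 marked motifs overlap here.
Thbs2: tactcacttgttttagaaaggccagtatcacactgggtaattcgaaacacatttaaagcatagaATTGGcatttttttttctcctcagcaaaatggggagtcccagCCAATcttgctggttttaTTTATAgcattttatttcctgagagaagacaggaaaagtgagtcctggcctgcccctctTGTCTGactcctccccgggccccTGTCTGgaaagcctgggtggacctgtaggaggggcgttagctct
Sfrp2: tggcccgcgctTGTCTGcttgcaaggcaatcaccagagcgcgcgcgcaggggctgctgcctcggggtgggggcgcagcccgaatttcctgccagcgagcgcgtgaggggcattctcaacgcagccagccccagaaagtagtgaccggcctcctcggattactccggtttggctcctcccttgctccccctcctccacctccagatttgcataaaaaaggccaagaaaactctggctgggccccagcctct
Promoter windows were matched for 71 of the 109 higher genes (87 windows) and 40 of the 49 lower genes (56 windows). GGAATG was found in 20.7% of the windows of higher genes and in 8.93% of those of lower genes, against 12.6% of 32851 windows of all genes. CCAAT was in 41.4% of the windows of higher genes, 30.4% of those of lower genes and 33.8% of all windows. CAGACA was in 17.2% of higher, 10.7% of lower and 17.1% of all, TATAAA in 9.20% of higher, 0% of lower and 12.4% of all, and CACGTG in 4.60% of higher, 3.57% of lower and 6.02% of all. These are counts of letters and not of bound sites.

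Proteases and their inhibitors split. Of 22 genes 5 rose and 1 fell, with a median of 0.17. Mmp2, a gelatinase made by fibroblasts, read 191, 327, 316, 370.2 and 250.2 CPM in MI day 7 and 63.4 to 121 CPM in sham day 7 libraries. Hearts of day 4 held 83.5 to 177 CPM with MI and 79.1 to 134 CPM with sham surgery, and every MI day 7 library was above all others (change 1.35 ± 0.29, edgeR adjusted p = 0.0164). Timp3, a matrix-bound inhibitor of metalloproteinases, averaged 319 ± 40.5 CPM in MI day 7 and 152 ± 19.3 CPM in sham day 7 libraries. Among day 4 hearts, MI had 172 ± 37.2 CPM and sham 157 ± 32.7 CPM (SD, n = 5 each), a change of 0.94 ± 0.19 (edgeR adjusted p = 0.0094). The other risen members were Timp2 (0.71), Adamts5 (0.80), an aggrecanase, and Mmp23 (1.04). The proteases of granulocytes had negative values that did not pass: -1.33 ± 0.84 for Mmp9 (edgeR adjusted p = 0.508) and -1.21 ± 1.19 for Mmp8 (adjusted p = 0.705). Adam19, a membrane protease, fell by 0.83 (SE 0.21, edgeR adjusted p = 0.0444), a gene whose sham libraries differed between the days. It read 109 to 139 CPM in MI day 7 and 88.1 to 147 CPM in sham day 7 libraries. On day 4, MI libraries held 99.9 to 143 CPM and sham libraries 52.9 to 96.5 CPM. Sham day 7 was higher than sham day 4 by a log2 of 0.84 (edgeR adjusted p = 0.0127), the MI groups of the 2 days differed by 0.00 (adjusted p = 0.989), and without the 7 libraries the change was -0.48 (adjusted p = 0.483).

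In the complement list 3 of 22 genes rose and 0 fell, with a median of 0.74. Among those that rose were Serping1, the C1 inhibitor (1.0 ± 0.23, edgeR adjusted p = 0.0235), and Cd55, decay accelerating factor (1.0 ± 0.24, edgeR adjusted p = 0.0394). The central component C3 had a change of 0.93 ± 0.47 that did not pass (edgeR adjusted p = 0.372). Several other risen genes were picked after their values were seen. Fxyd6, a regulator of the sodium pump, had the lowest p of all genes. It read 184, 160.5, 141, 168 and 152 CPM in MI day 7 and 46.3, 55.7, 54.4, 41.0 and 39.9 CPM in sham day 7 libraries. At day 4 MI stood at 67.1, 54.3, 66.5, 69.8 and 61.4 CPM and sham at 46.4, 47.9, 54.5, 44.8 and 46.2 CPM. MI day 7 stood apart from all others with little spread (change 1.35 ± 0.13, edgeR adjusted p = 2.43e-07). Gucy1a1 and Gucy1b1, the 2 subunits of the soluble guanylate cyclase that answers nitric oxide, rose by 0.99 ± 0.22 (adjusted p = 0.0235) and 0.74 ± 0.16 (adjusted p = 0.0139). Stc2, the secreted glycoprotein stanniocalcin 2, averaged 18.9 ± 2.25 CPM in MI day 7 and 19.4 ± 1.79 CPM in sham day 7 libraries. The day 4 libraries had 9.47 ± 1.04 CPM after MI and 20.5 ± 1.89 CPM after sham surgery (SD, n = 5 each), so that MI was not past the threshold at day 7 (log2 -0.23) and below sham at day 4 (log2 -1.30). The change was 1.07 ± 0.15 (edgeR adjusted p = 0.000171).

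Of the circadian clock list 2 of 18 genes rose and 0 fell, with a median of 0.30. Dbp, a clock-driven transcription factor (chr7:45705088-45710203), read 20.8, 12.9, 25.0, 20.6 and 16.4 CPM in MI day 7 and 9.80, 16.8, 13.7, 11.3 and 11.2 CPM in sham day 7 libraries. In day 4 libraries the level was 7.24, 7.05, 11.01, 15.7 and 9.28 CPM for MI and 29.7, 32.5, 40.6, 24.9 and 20.8 CPM for sham. MI overlapped with sham at day 7 and was below it without overlap at day 4. The change was 2.17 ± 0.37 (edgeR adjusted p = 0.00205), and both arms moved, by 0.93 between the MI groups (adjusted p = 0.0209) and by -1.25 between the sham groups (adjusted p = 0.0397). Nr1d2, a clock repressor, rose by 0.80 ± 0.16 (edgeR adjusted p = 0.0106), with an MI effect of -0.26 at day 7 and -1.06 at day 4. The core clock gene Arntl had a change of -0.37 ± 0.26 (adjusted p = 0.569). Tcap, telethonin, which caps titin at the Z-disc, was the 1 of 32 sarcomere genes past the test (change 0.71 ± 0.17, edgeR adjusted p = 0.0359). It averaged 653 ± 88.3 CPM in MI day 7 and 818 ± 102 CPM in sham day 7 libraries. For day 4 the values were 558 ± 95.1 CPM in MI and 1140.1 ± 134 CPM in sham hearts (SD, n = 5 each). The sham groups of the 2 days did not overlap, with day 7 lower, whereas the MI groups did. MI overlapped with sham at day 7 and was below it without overlap at day 4. The call was lost in 10 of the 20 fits that left out a library. The sarcomere list as a whole had a median of -0.01.

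The 49 lower genes had smaller changes, and 38 of them were also lower in MI day 7 than in MI day 4 hearts (6.29% of all genes were). Their median log2 difference was -0.38 between MI day 7 and MI day 4 and 0.17 between sham day 7 and sham day 4. Between the sham groups 2 passed the test, both higher at day 7: Adam19, described above, and Dnajc25 (log2 0.43, edgeR adjusted p = 0.0344), named after its value was seen. In 11 of the 49 the sham libraries of the 2 days did not overlap, as in 2 of the 109 higher genes. The share over all genes tested was not counted for sham, so whether these counts are unusual cannot be said. In 25 of the 49 (51.0%) every MI day 7 library was below every MI day 4 library, against 3.68% of all genes tested. The MI and sham groups both enter the contrast that chose these genes, so such counts follow in part from the choice. The same holds for the relations to sham that follow, which were not counted over all genes tested. MI was lower than sham at day 7 and not past the threshold at day 4 in 22, not past the threshold at day 7 and higher at day 4 in 16, lower at day 7 and higher at day 4 in 6, lower at both days in 4 and higher at both days in 1. The last was Uck2, a kinase that salvages uridine and cytidine. It read 155, 138, 204, 172 and 145 CPM in MI day 7 and 67.2, 75.0, 67.2, 82.9 and 66.3 CPM in sham day 7 libraries. Hearts of day 4 held 341, 279.6, 246, 282 and 264 CPM with MI and 73.0, 71.4, 64.4, 70.4 and 65.7 CPM with sham surgery. MI was above sham without overlap at both days, the sham groups of the 2 days differed by a log2 of 0.04, and the effect fell by 0.84 (SE 0.16, edgeR adjusted p = 0.00413). Igf2bp2, which binds and stabilises messenger RNAs, averaged 12.8 ± 1.16 CPM in MI day 7 and 9.44 ± 1.04 CPM in sham day 7 libraries. Among day 4 hearts, MI had 19.7 ± 1.94 CPM and sham 7.98 ± 1.60 CPM (change -0.86 ± 0.19, edgeR adjusted p = 0.0233). Phlda1, a protein with a pleckstrin homology-like domain, read 25.2, 25.7, 37.2, 26.7 and 27.6 CPM in MI day 7 and 17.4 to 26.5 CPM in sham day 7 libraries. On day 4, MI libraries held 39.5 to 48.2 CPM and sham libraries 11.5 to 19.98 CPM, with MI and sham overlapping at day 7 only (change -1.06 ± 0.25, edgeR adjusted p = 0.0277, missed in 8 of the 20 fits that left out a library). Hmga1, a chromatin protein of dividing cells, averaged 23.7 ± 2.01 CPM in MI day 7 and 31.2 ± 2.86 CPM in sham day 7 libraries. At day 4 MI stood at 41.9 ± 4.87 CPM and sham at 29.8 ± 4.07 CPM (SD, n = 5 each), so that MI was below sham at day 7 and above it at day 4 (change -0.88 ± 0.15, edgeR adjusted p = 0.00178). Its near-copy Hmga1b was called with -0.85 ± 0.14. How reads that match both were counted is not given in the sources used here, so the split between them is uncertain.

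**Figure D4:**
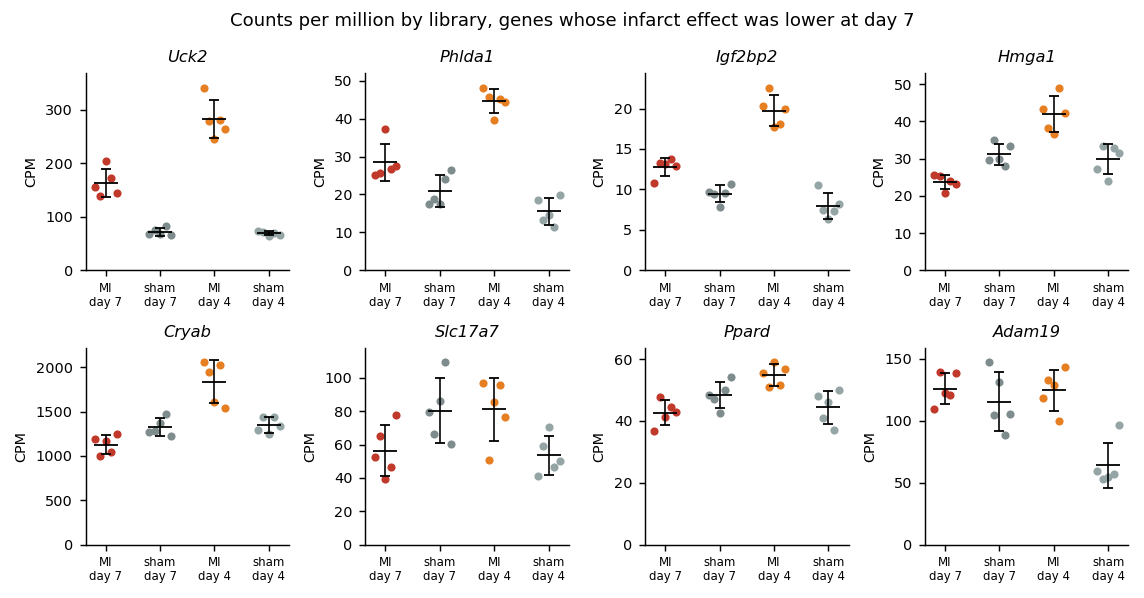
CPM in each library (points, replicates 1 to 5 from left to right) with mean and SD for 8 genes whose MI effect was lower at day 7. For Uck2, Phlda1, Igf2bp2, Hmga1 and Cryab every MI day 4 library was above every other library, whereas for Adam19 the sham day 4 libraries were low.

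Among heart muscle and metabolic genes few fell. In the cardiac stress and fetal list 1 of 24 genes fell and 0 rose, with a median of -0.31. Cryab, a small heat shock protein of muscle, read 1188, 994, 1167, 1046 and 1244 CPM in MI day 7 and 1273, 1282, 1368, 1473 and 1226 CPM in sham day 7 libraries. The day 4 libraries had 2057, 1949, 1612, 2028 and 1545 CPM after MI and 1287, 1443, 1244, 1440 and 1341 CPM after sham surgery. MI was below sham with overlap at day 7 (log2 -0.42) and above it without overlap at day 4 (log2 0.25), and the effect fell by 0.67 (SE 0.15, edgeR adjusted p = 0.0187). The natriuretic peptides Nppa and Nppb had changes of -0.29 ± 0.26 and -0.38 ± 0.36 that did not pass (edgeR adjusted p = 0.656 and 0.695). Of 17 metabolic regulators 1 fell and 0 rose: Ppard, a nuclear receptor of fatty acid use, which averaged 42.6 ± 4.002 CPM in MI day 7 and 48.5 ± 4.25 CPM in sham day 7 libraries. In day 4 libraries the level was 54.8 ± 3.44 CPM for MI and 44.4 ± 5.40 CPM for sham (change -0.49 ± 0.11, edgeR adjusted p = 0.0285). Slc17a7, a vesicular glutamate transporter, read 39.4 to 78.0 CPM in MI day 7 and 60.3 to 109 CPM in sham day 7 libraries. For day 4 the values were 50.8 to 96.9 CPM in MI and 41.1 to 70.4 CPM in sham hearts, and although all pairs of groups overlapped, its change of -1.12 ± 0.25 passed (edgeR adjusted p = 0.0208). The lists of fatty acid oxidation (32 genes), respiratory chain and TCA cycle (41) and calcium cycling (39) had 0 genes past the test (edgeR; at an unadjusted p under 0.05, 2 higher in the first and 3 lower in the last, and by DESeq2 1 lower in the last), with medians of -0.02, -0.10 and -0.20, and their median MI effects were -1.23, -0.97 and -0.77 at day 7 and -1.18, -0.85 and -0.66 at day 4.

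Ribosome biogenesis and cell division lists had no gene past the test. The 24 ribosome biogenesis genes were all negative, from -0.39 to -0.03 with a median of -0.27, and 0 passed the test (edgeR). Of these 8 had an unadjusted p under 0.05, 0 were called by DESeq2, and 8 were lower in MI day 7 than in MI day 4 hearts (6.29% of all genes were). Called genes outside that list, picked after their values were seen, include nucleolar proteins: Bysl, which helps assemble the small ribosomal subunit (-0.57 ± 0.12, edgeR adjusted p = 0.0152), Lyar (-0.55 ± 0.13, adjusted p = 0.0247) and Gpatch4 (-0.73 ± 0.17, adjusted p = 0.0261). Of 64 cell cycle and mitosis genes 0 passed with edgeR or DESeq2, 2 were lower at an unadjusted p under 0.05 and 13 were positive, with a median of -0.22. Between MI day 7 and MI day 4 hearts 15 of the 64 were lower and 0 higher, with a median of -0.55. Mki67, a marker of dividing cells, read 42.6 to 73.7 CPM in MI day 7 and 5.83 to 10.2 CPM in sham day 7 libraries. Hearts of day 4 held 50.5 to 122 CPM with MI and 8.65 to 26.7 CPM with sham surgery, so that MI was above sham at both days (change 0.24 ± 0.43, edgeR adjusted p = 0.861). The sign of this Mki67 change was not stable. It was -0.11 to 0.44 in the fits that left out a library and -0.18 without the 7 libraries.

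Macrophage, neutrophil and cytokine lists had 0 genes past the test in either direction by edgeR or DESeq2. At an unadjusted p under 0.05, 1 pan-macrophage gene was higher, 3 resident macrophage genes were higher, 1 phagocytic and lipid-handling macrophage gene was higher and 2 lower, 1 neutrophil gene was lower, and 2 cytokine and chemokine genes were higher and 3 lower. The median change was 0.31 for 20 pan-macrophage genes, 0.31 for 20 resident macrophage genes, -0.11 for 28 phagocytic macrophage genes, 0.10 for 20 neutrophil genes and -0.17 for 33 cytokine and chemokine genes. Without the 7 libraries these medians were 0.32, 0.14, 0.03, 0.40 and 0.01, so that the phagocytic and cytokine lists changed sign. Spp1, osteopontin of wound macrophages, read 59.0 to 400.1 CPM in MI day 7 and 5.31 to 27.0 CPM in sham day 7 libraries. Among day 4 hearts, MI had 488 to 726 CPM and sham 14.1 to 25.1 CPM. The MI groups of the 2 days did not overlap, yet sham was also lower at day 7 as a value and the change was -0.63 ± 0.62 (edgeR adjusted p = 0.705). Arg1 and Ccl2 had negative changes with wide errors, -0.92 ± 0.57 and -0.83 ± 0.49 (edgeR adjusted p = 0.496 and 0.464), and both were lower in MI day 7 than in MI day 4 hearts, by log2 values of -1.49 and -1.79. The list of B cell and plasma cell genes had a median of 2.06 over 16 genes, with 0 past the test by edgeR or DESeq2 and 10 higher at an unadjusted p under 0.05. The median was -0.59 without the 7 libraries.

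Without the 7 libraries at or above 50 CPM of lung or skeletal muscle transcripts, 4 of the 44 named genes stayed past the threshold, namely Col8a2, Fbln5, Aspn and 1500015O10Rik. The log2 change was then 2.39 for Comp (edgeR adjusted p = 0.0728), 2.39 for Sfrp2 (adjusted p = 0.134), 2.21 for Dbp (adjusted p = 0.0993), 2.11 for Fmod (adjusted p = 0.21) and 1.75 for Thbs2 (adjusted p = 0.134). On the lower side it was -0.86 for Hmga1 (edgeR adjusted p = 0.0874), -0.85 for Uck2 (adjusted p = 0.14) and -0.61 for Cryab (adjusted p = 0.239). Over the 44 genes the log2 change without these libraries was 0.572 to 1.35 times that from all libraries, with a median of 1.01 times. It moved most for Adam19 (given above), Ppard (-0.66), Mmp23 (1.37), Ccn5 (2.25), Slc7a7 (-1.09) and Matn4 (2.58). Among the lists, the small leucine-rich proteoglycans then had 1 gene past the test and a median of 0.89, and scar and cartilage-like matrix had 0 and a median of 1.01. The fibrillar collagens had a median of 0.96, elastic fibre and microfibril genes 0.76, matricellular genes 0.69 and resting fibroblast genes 0.58. Beside the Wnt and immune lists above, medians that moved by over 1.5 times include 0.65 for the other collagens (1.07 with all libraries), 0.34 for complement, 0.33 for proteases and their inhibitors, -0.33 for calcium cycling, -0.14 for sarcomere and -0.06 for fatty acid oxidation genes. Lists whose medians are not given above moved too, some with a change of sign. The median went from 4.31 to 0.83 for lung and from 1.48 to -0.23 for fast skeletal muscle genes. It went from 0.58 to -0.86 for adipocyte genes and from 0.50 to 0.12 for MHC class II and dendritic cell genes.

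**Figure D5:**
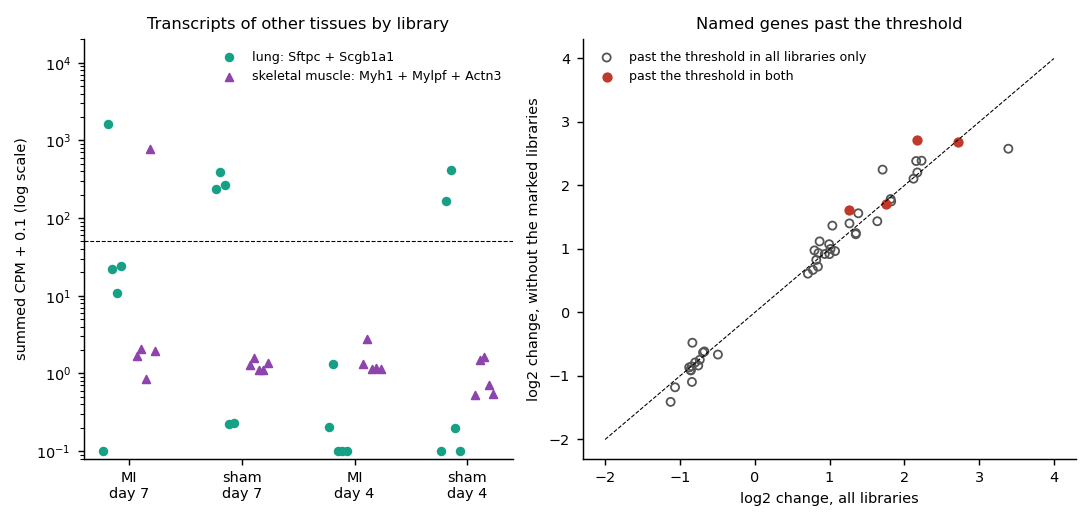
Left, summed CPM plus 0.1 (log scale) of lung and fast skeletal muscle genes in each library, with the 50 CPM limit as a dashed line. Right, the log2 change of the 44 named genes past the threshold, fitted without the 7 libraries at or above that limit (vertical axis) against all libraries (horizontal axis); 4 were past the threshold in both, and all kept their sign.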

How the data were processed

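RNA-seq libraries of 150-base paired reads were made with a directional kit, per the labels' protocols. The authors deposited raw counts per gene and library; the submitters' processing notes name bcl2fastq 2.20.0, featureCounts and GRCm38. Neither aligner nor strand setting is stated in the sources used here. Of 43629 identifiers 97.5% were named by the annotation, and 37 mitochondrially encoded genes held 0 counts. All 30 libraries in 6 groups were fitted with edgeR 4.0.16 (R 4.3.3; TMM, minimum count 10, robust quasi-likelihood test), and p-values were adjusted over 15537 genes. A count of 0 allows up to 3 counts, 0.248 to 0.383 CPM, which covers counting error only. On simulated data, 64% of genes changed 2-fold and 93.9% of those changed 4-fold were called. Members and the 53 gene lists were chosen with earlier results of these data known. Named genes are 32 preset genes, the 12 largest called changes a direction with at least 5 CPM, and up to 3 called genes a list with at least 1 CPM; other called genes were chosen after their values were seen. Alternatives used limma 3.58.1, DESeq2 1.42.0 and other filters. Some results are not reported here.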

Additional observations from a re-analysis of the deposited data

Results flagged for a closer look

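The MI effect differed between days 7 and 4, by the test of the difference itself, in 109 genes that were higher and 49 that were lower. Among the genes described, the log2 change was 3.39 for Matn4, 2.71 for Col8a2, 2.23 for Comp, 2.17 for Dbp, 2.16 for Sfrp2, 2.12 for Fmod, 1.82 for Thbs2, 1.76 for Fbln5 and 1.71 for Ccn5. It was 1.35 for Mmp2, Fxyd6 and Frzb, 1.27 for Col8a1, 1.26 for Aspn, 0.94 for Timp3, 0.93 for Dcn, 0.87 for Tcf21 and 0.71 for Tcap. On the lower side it was -1.12 for Slc17a7, -1.06 for Phlda1, -0.88 for Hmga1, -0.86 for Igf2bp2, -0.84 for Uck2, -0.83 for Adam19, -0.67 for Cryab and -0.49 for Ppard.

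Single libraries stood far from the others of their group in 14 of 136 groups of values. Chance gives about 1 in 20 for independent, normally distributed values. CPM values of related and partly chosen genes need not be such, so these rates cannot be compared. Sham day 4 replicate 1 was high for the fibroblast genes Ccn5 (32.5 CPM, next 15.5), Aspn (69.3 CPM, next 48.6), Frzb (15.6 CPM, next 9.46) and Tcf21 (18.9 CPM, next 12.8). Sham day 4 replicate 3 was high for Matn4 (2.24 CPM, next 0.777) and Mki67 (26.7 CPM, next 11.8), and sham day 4 replicate 5 for Adam19 (96.5 CPM, next 59.5). Sham day 7 replicate 2 was high for Postn (319 CPM, next 172) and Spp1 (27.0 CPM, next 8.67), and MI day 7 replicate 3 for Phlda1 (37.2 CPM, next 27.6). The lung genes Sftpc and Scgb1a1 summed to 1642 CPM in MI day 7 replicate 2 (next 24.0) and to 1.22 CPM in MI day 4 replicate 2 (next 0.102). The skeletal muscle genes Myh1, Mylpf and Actn3 summed to 774 CPM in MI day 7 replicate 4 (next 1.97) and to 2.63 CPM in MI day 4 replicate 2 (next 1.22).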

How the results depend on the processing

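All 158 genes, chosen on these same libraries, kept their direction in all 30 alternatives, but their number moved. For the change of the MI effect, 61 genes were higher and 28 lower with the 20 libraries alone, 180 and 97 with limma voom and sample weights, 53 and 31 without a filter on low counts, 224 and 197 with DESeq2, and 11 and 0 when tested against a fold change of 1.5. Without the lung libraries, 16 were higher and 2 lower, and without those and the skeletal muscle one, 9 and 0 (chosen after seeing the data; fewer samples). Leaving out 1 library gave 54 to 206 higher and 14 to 114 lower. Counts over 1.5 times from 109 higher and 49 lower came, with each such library left out, at 65 and 32 (sham day 4 replicate 1), 56 and 14 (its replicate 3), 58 and 18 (MI day 4 replicate 1), 54 and 19 (replicate 2), 206 and 82 (replicate 5), 71 and 28 (sham day 7 replicate 1), 70 and 25 (replicate 4), 56 and 17 (replicate 5), 70 and 28 (MI day 7 replicate 2), 67 and 28 (replicate 4) and 180 and 114 (replicate 5). Higher alone moved to 171 without sham day 7 replicate 2, and lower alone to 30 without sham day 4 replicate 2 and to 31 without MI day 4 replicate 4.

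For sham day 7 against sham day 4, 5 and 5 genes were higher and lower with the 20 libraries alone, 53 and 46 with limma voom, 5 and 7 without a filter, 49 and 61 with DESeq2, and 0 and 0 against a fold of 1.5 and without the lung or the lung and skeletal muscle libraries, with 0 to 15 and 0 to 16 when 1 library was left out. Against a fold of 1.5, MI day 7 against MI day 4 had 53 higher and 4 lower, MI against sham 2107 and 1091 at day 7 and 1547 and 732 at day 4. Leaving out 1 library gave 570 to 1096 higher and 575 to 1152 lower between the MI groups (lowest without MI day 4 replicate 2), 4447 to 4832 and 3985 to 4307 at day 7, and 3777 to 4159 and 3666 to 4058 at day 4. Causes were not tested. The main fit did not pair samples by replicate number, and whether same-numbered samples shared a batch or handling was not tested. Of 30 same-numbered pairs 9 had a correlation over 0.1 (-0.26 to 0.35), 4 of them among the 5 between the sham groups (0.17 to 0.35, and -0.24 for replicate 1). The fit with the replicate block gave 76 higher and 32 lower for the change, and 5 higher for the sham groups. With it 7 of the 44 named genes past the threshold missed it, Col8a1 (edgeR adjusted p = 0.0555), Tcf21 (0.0555) and Cd55 (0.0619) among them. Of the 44 named genes past the threshold, 20 kept it in each fit that left out 1 library and 3 in all 30 alternatives. In data simulated at these depths, 22.9% of genes changed 1.5-fold were called. Depth and replicate spread were not told apart.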

Other observations

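Day 2 libraries, which share in the estimate of spread above but stand in no comparison, give the earlier level of the same genes (log2 of mean CPM plus 0.5, described after the values were seen and with no test). These values use plain CPM without the TMM factors behind the log2 differences of days 4 and 7, so the scales are not the same. For the 109 genes whose MI effect was higher at day 7, the median MI minus sham value at day 2 was -0.16. Of these 109 genes 38 were positive. Over all 15537 genes tested the median was 0.09 and 9148 were positive. In 11 of the 109 genes (10.1%) MI libraries of day 2 were above sham without overlap and in 13 (11.9%) below, against 19.6% and 9.76% of all genes. Of the 49 lower genes, 19 (38.8%) were above sham without overlap and 7 (14.3%) below, with a median of 0.15. At day 2 Col8a2 stood at 0.993 ± 0.225 CPM in MI, against 1.16 ± 0.257 CPM in sham hearts. Comp stood at 11.4 ± 1.28 CPM in MI, against 11.5 ± 2.90 CPM in sham, and Fbln5 at 29.4 ± 3.56 CPM in MI, against 34.1 ± 7.16 CPM in sham. Dcn was at 473 ± 62.1 CPM in MI and 758 ± 163 CPM in sham hearts. Of the 49 lower genes 31 were positive at day 2, against 9148 of all 15537 genes tested. Uck2 and Cryab stood high: MI hearts held 364 ± 45.5 CPM of Uck2, against 95.4 ± 8.29 CPM in sham, and 3803 ± 248 CPM of Cryab, against 2299.5 ± 213 CPM in sham. Others did not: Ppard stood at 50.3 ± 1.47 CPM in MI, against 51.9 ± 4.97 CPM in sham. Slc17a7 stood at 75.5 ± 6.62 CPM in MI, against 85.7 ± 14.5 CPM in sham (SD, n = 5 each).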
